A study of Homo sapiens with 8 samples.

Results

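The keratins described here are 10 genes, KRT5, KRT6A, KRT7, KRT8, KRT15, KRT17, KRT18, KRT19, KRT80 and KRT81, taken by gene symbol from the 36779 genes of the deposited count tables, and all 10 were listed. Total RNA of PC3 and DU145 was sequenced, 2 human prostate cancer cell lines, the first from a bone metastasis and the second from a brain metastasis. Each line was transfected with a plasmid carrying circ0003553, with a plasmid carrying circ0004592, both circular RNAs (circRNAs), or with a negative control plasmid (NC). In the sample titles the arm with circ0003553 is marked RCAN3 and the one with circ0004592 is marked STK3, and each arm has its own control. There are thus 6 groups over 8 libraries: 1 library for each circRNA in each line, and 2 control libraries for each line. Every library came from transfected cells, and untransfected cells are no part of the comparisons. The time after transfection and the amount of plasmid are not given in the sources used here.

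Keratins are the intermediate filament proteins of epithelial cells, and a filament is built from pairs of a type I and a type II keratin. Among the 10 genes, KRT15, KRT17, KRT18 and KRT19 encode type I and the other 6 type II proteins. In the prostate gland, KRT8 and KRT18 mark the secretory luminal cells and KRT5, with its partner KRT14, marks the basal layer, so the balance between these sets is used to describe the epithelial state of prostate tumours. KRT7, KRT8, KRT18 and KRT19 were read as luminal or simple keratins, KRT5, KRT6A, KRT15 and KRT17 as basal or stratified keratins, and KRT80 and KRT81 were kept apart. KRT81 is a hair keratin, made in the hair shaft.

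Library totals ran from 33444940 to 49926342 counts. Levels are CPM, read counts scaled to the TMM-adjusted library size, and CPM per kb, which divides by the gene length in the deposited tables, is used to rank and sum the levels of different genes. The floor, 3 read pairs or 6 counts, lay between 0.118 and 0.184 CPM. Every one of the 10 keratins was above it in every library, but only 8 reached 1 CPM in at least 2 libraries and were tested among 17877 genes. KRT6A and KRT17 did not. Nothing in the labels says that libraries of a group came from separate cultures, so p-values measure only the spread between these samples. Each circRNA has 1 library per line, and its spread was taken to equal that of the controls. The prostate epithelial markers were mixed: the luminal transcription factor HOXB13 had 255 and 275 CPM in the PC3 controls, against 0 and 0.0786 CPM in the DU145 controls, and KLK3 (PSA) was at or near 0 in all libraries. TP63, the transcription factor that defines basal cells, did not exceed 0.424 CPM in any library. Of 7 tested basal markers outside the keratins, 2 were higher and 4 lower in PC3, and of 8 tested luminal markers 4 were higher and 3 lower, beside 82.6% of all tested genes that passed in either direction.

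**Figure D1:**
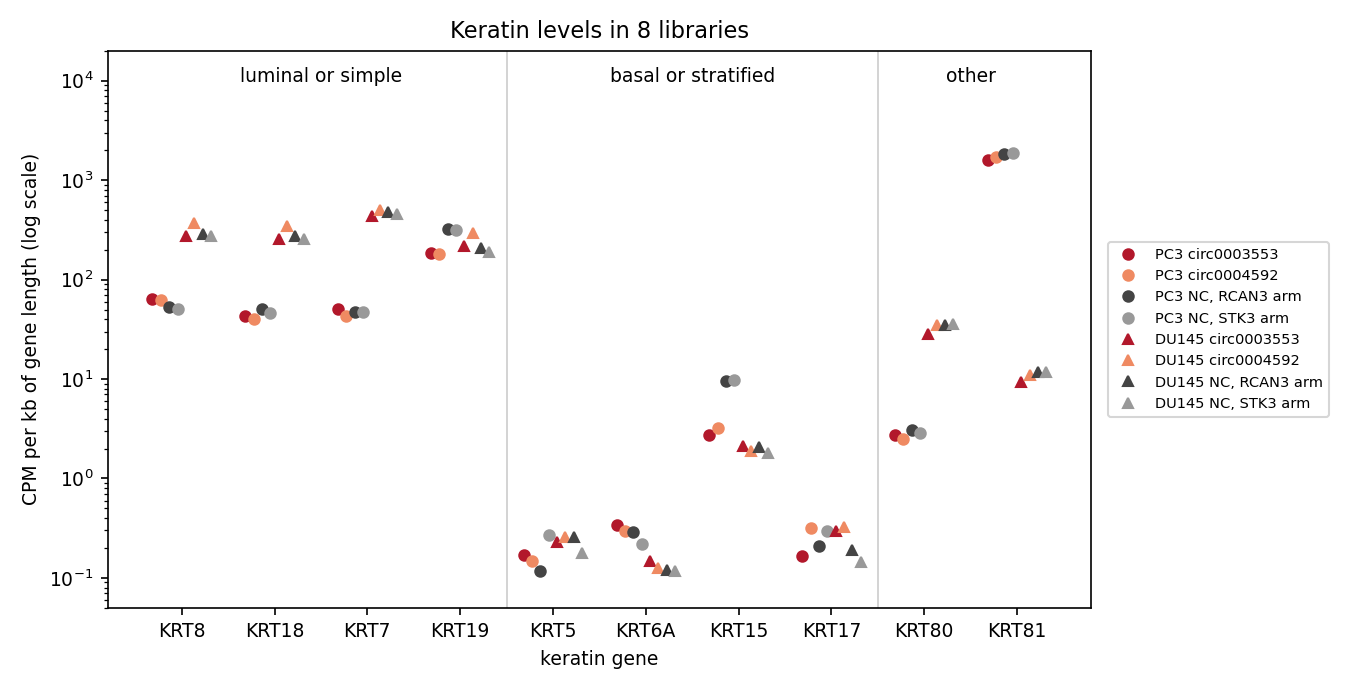
Level of each keratin in each of the 8 libraries, in CPM per kb of gene length on a log axis, with PC3 as circles and DU145 as triangles and 1 point per library. KRT81 lies above 1500 in the PC3 libraries and near 10 in the DU145 libraries, while KRT5, KRT6A and KRT17 lie below 0.4 in all of them.

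The keratins of the 2 lines differed in make-up. DU145 made mostly KRT7, KRT8, KRT18 and KRT19, and PC3 made mostly KRT81. Of the 8 keratins tested, 3 were higher in the PC3 controls than in the DU145 controls, 4 were lower and 1 did not pass (edgeR quasi-likelihood test, adjusted p under 0.05), with a median log2 difference of -1.30. Across all 17877 genes 82.6% passed, 41.6% higher and 41.1% lower, with a median of 0.00, so a passing test is the usual outcome of this comparison and the sizes carry the description.

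KRT81 stood furthest apart. Its level was 3509 and 3619 CPM in the PC3 controls, against 22.4 and 22.8 CPM in the DU145 controls. The controls of a line nearly coincided and the lines lay 157-fold apart (log2 7.30 ± 0.05, SE, adjusted p = 1.58e-30). Ranked by CPM per kb among the 36779 genes, KRT81 stood between places 21 and 24 in the 4 PC3 libraries and between places 3885 and 4634 in the 4 DU145 libraries. The gene lies on chromosome 12 at 52285913 to 52291534 (hg38, minus strand), near the closely related hair keratins KRT86 and KRT83. It lies within the listed span of KRT86, 52249300 to 52309163 on the plus strand.

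Because these neighbours are near copies, their sequences show how far counts can be told apart. The coding sequence of KRT81 matched that of KRT86 at 1369 of 1454 aligned bases (94.2%), with an identical stretch of 605 bases, and that of KRT83 at 1367 of 1464 (93.4%). Of all 150-base windows in KRT81 transcripts, 25.1% also stand in a transcript of another keratin gene or pseudogene. Of the 50-base windows 43.7% do, most of them in KRT86. Genes other than keratins were not searched. The 90 coding bases below, from the GENCODE transcripts on GRCh38, are a stretch in which the 3 genes can be separated. It spans an intron at chr12:52286447-52287112 (minus strand) in KRT81, chr12:52306270-52308450 (plus strand) in KRT86 and chr12:52314772-52315903 (minus strand) in KRT83. Capitals in the KRT81 line mark bases at which either other gene differs, and capitals in the other lines mark bases that differ from KRT81, 19 in KRT86 and 8 in KRT83.
KRT81: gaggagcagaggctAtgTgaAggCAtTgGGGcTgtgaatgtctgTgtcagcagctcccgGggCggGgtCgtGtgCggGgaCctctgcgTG
KRT86: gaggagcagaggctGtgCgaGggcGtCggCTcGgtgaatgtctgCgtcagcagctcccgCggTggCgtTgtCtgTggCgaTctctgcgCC
KRT83: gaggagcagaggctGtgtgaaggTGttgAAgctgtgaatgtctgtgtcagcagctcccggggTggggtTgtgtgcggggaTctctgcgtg

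Per length, the 2 relatives were far lower than KRT81 in PC3, with KRT86 between 16.2 and 25.5 and KRT83 between 2.76 and 3.52 CPM per kb, against 1580 to 1876 CPM per kb for KRT81. KRT86 lay between 38.7 and 61.0 CPM in the 4 PC3 libraries, against 4.24 to 7.22 CPM in the 4 DU145 libraries (controls, log2 2.86 ± 0.13, adjusted p = 4.24e-16). KRT83 lay between 5.17 and 6.61 CPM in PC3, against 0.0614 to 0.462 CPM in DU145. How reads that match more than 1 of these genes were counted is not given in the sources used here. The values of KRT86 and KRT83 in PC3 are therefore uncertain, and reads of KRT81 may be among them. For the same reason the exact level, rank and share of KRT81 are uncertain, since its own shared reads may have been left out. KRT6A likewise shares 32.1% of its 50-base windows with other keratin genes or pseudogenes, mostly KRT6C.

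The luminal and simple keratins were lower in PC3, except KRT19. KRT8, the main type II keratin of simple epithelia, had 364 and 351 CPM in the PC3 controls, against 1979 and 1902 CPM in the DU145 controls, 5.43-fold more in DU145 (log2 -2.44 ± 0.04, adjusted p = 7.44e-24). Its filament partner KRT18 had 161 and 149 CPM in the PC3 controls, against 876 and 824 CPM in the DU145 controls (log2 -2.46 ± 0.05, adjusted p = 8.90e-23), so the pair was lower by nearly the same factor. KRT7, a keratin of glandular ducts and simple epithelia, had 191 and 194 CPM in the PC3 controls, against 1958 and 1876 CPM in the DU145 controls (log2 -3.31 ± 0.05, adjusted p = 4.52e-26). In all 3 genes every PC3 library lay below every DU145 library.

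KRT19, the shortest keratin, which lacks the tail domain of the others, went the other way among the controls. It had 756 and 731 CPM in the PC3 controls, against 489 and 446 CPM in the DU145 controls (log2 0.67 ± 0.05, adjusted p = 3.32e-12). This difference is that of the controls. Over all 8 libraries, with a replicate block for plasmid and arm, the edgeR value was 0.10 (adjusted p = 0.707). That value also takes in the circRNA libraries, with 436 and 423 CPM in PC3, against 512 and 693 CPM in DU145. KRT80, a type II keratin found in many epithelia, had 13.4 and 12.3 CPM in the PC3 controls, against 152 and 154 CPM in the DU145 controls (log2 -3.58 ± 0.06, adjusted p = 6.66e-24).

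The basal and stratified keratins were low in both lines, and KRT15 alone was well above 1 CPM. KRT15, a type I keratin of basal cells and of hair follicle stem cells, had 68.0 and 69.7 CPM in the PC3 controls, against 14.8 and 12.7 CPM in the DU145 controls (log2 2.32 ± 0.08, adjusted p = 1.78e-18). With all 8 libraries and the replicate block for plasmid and arm the difference was 1.45 (adjusted p = 0.00723). KRT5, the defining type II keratin of basal cells, had 0.506 and 1.17 CPM in the PC3 controls, against 1.10 and 0.760 CPM in the DU145 controls. These ranges overlap, and the test did not separate the lines (log2 -0.16 ± 0.39, adjusted p = 0.712). KRT6A, induced in wounded or stressed epithelia, had 0.843 and 0.641 CPM in the PC3 controls, against 0.352 and 0.341 CPM in the DU145 controls, and without the filter on low counts this passed (log2 1.14, adjusted p = 0.0228). KRT17, another keratin of stressed epithelia, had 0.534 and 0.753 CPM in the PC3 controls, against 0.484 and 0.367 CPM in the DU145 controls, and did not pass without the filter (adjusted p = 0.259). These 3 genes rest on 12 to 50 counts a library.

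Per length, the order of the 10 keratins in the PC3 controls was KRT81 (1819 and 1876 CPM per kb), KRT19 (324 and 313), KRT8 (52.9 and 51.0), KRT18 (50.1 and 46.2), KRT7 (46.7 and 47.4), KRT15 (9.54 and 9.79) and KRT80 (3.07 and 2.83), with KRT5, KRT6A and KRT17 below 0.3 CPM per kb. Of these neighbours only KRT18 and KRT7 overlapped. The orders given here cover the 10 alone. Outside them, KRT75 had a mean of 56.2 CPM per kb in the PC3 controls, above KRT8, and KRT86 21.4, above KRT15. In the DU145 controls the order was KRT7 (478 and 458 CPM per kb), KRT8 (288 and 276), KRT18 (272 and 256), KRT19 (209 and 191), KRT80 (35.1 and 35.4), KRT81 (11.6 and 11.8) and KRT15 (2.08 and 1.78), again with KRT5, KRT6A and KRT17 below 0.3 CPM per kb. There KRT8 and KRT18 stood closest, and the controls of these 2 did not overlap. Among the 3 lowest, the ranges overlapped in PC3, while in DU145 KRT6A lay below KRT5 and KRT17, which overlapped.

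Summed per length, the 4 luminal or simple keratins outweighed the 4 basal or stratified keratins in every library, by less in PC3. For short, the sets are called luminal and basal here. The luminal sum is not that of KRT8 and KRT18 alone. KRT19 made up 68.4% of it in each PC3 control, and 16.8% and 16.1% in the DU145 controls. The ratio of luminal to basal was 46.6 and 43.3 in the PC3 controls, against 471 and 532 in the DU145 controls. The luminal share of the 2 sets was 97.9% and 97.7% in the PC3 controls, against 99.8% in each DU145 control. The basal sum in PC3 was nearly all KRT15: it was 10.2 and 10.6 CPM per kb in the PC3 controls, and 0.616 and 0.789 without KRT15, against 2.65 and 2.22 CPM per kb in the DU145 controls, and 0.568 and 0.438 without KRT15. KRT81 made up 78.9% and 79.9% of the summed CPM per kb of the 10 keratins in the PC3 controls, against 0.897% and 0.961% in the DU145 controls. The ratio of type II to type I keratins among the 10 was accordingly 5.01 and 5.35 in the PC3 controls, against 1.68 and 1.74 in the DU145 controls.

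**Figure D2:**
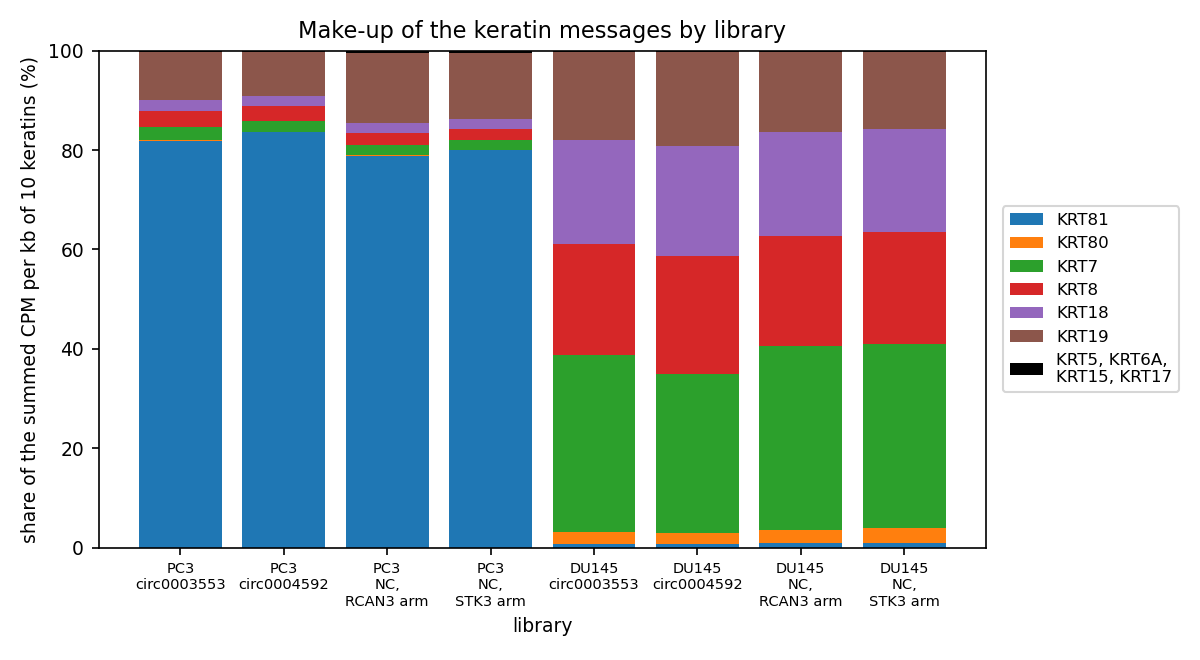
Share of each keratin in the summed CPM per kb of the 10 keratins (%), 1 bar per library, with the 4 basal or stratified keratins as 1 black segment. KRT81 fills 78.9% to 83.6% of the bars of PC3 and under 1% of those of DU145, and KRT7, KRT8, KRT18 and KRT19 fill 96.0% to 96.9% in DU145.

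The next comparison set the circ0003553 plasmid against the control plasmid in PC3 and asked which keratin messages differ when this circRNA is supplied. KRT15 and KRT19 fell, KRT8 rose, and KRT18 and KRT81 fell by small amounts. Of the 8 keratins tested, 1 rose, 4 fell and 3 did not pass, with a median log2 change of -0.19, beside 28.8% of all genes called (14.3% higher, 14.5% lower, median -0.03).

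KRT15 had 19.4 CPM in the PC3 library with circ0003553, against 68.0 CPM in its own control. The other PC3 control was at 69.7 CPM, and the test against both gave a log2 change of -1.83 ± 0.10 (adjusted p = 3.30e-13). The level with circ0003553 was close to the 14.8 CPM of the DU145 control of that arm. KRT19 had 436 CPM with circ0003553, against 756 CPM in its own control (log2 -0.77 ± 0.06 against both controls, adjusted p = 3.01e-10). The 2 genes are neighbours in the type I cluster on chromosome 17, KRT15 at 41513743 to 41522529 and KRT19 at 41523617 to 41528308 (hg38, both on the minus strand).

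KRT8 and KRT18 moved apart. KRT8 had 435 CPM with circ0003553, against 364 CPM in its own control (log2 0.28 ± 0.05 against both, adjusted p = 0.000164). KRT18 had 138 CPM with circ0003553, against 161 CPM in its own control (log2 -0.17 ± 0.06 against both, adjusted p = 0.0473). The call for KRT18 was lost under 6 of 9 alternatives, with adjusted p from 0.00703 to 0.291, and without the PC3 control of the RCAN3 arm its log2 change was -0.10 (adjusted p = 0.291). KRT81 had 3047 CPM with circ0003553, against 3509 CPM in its own control (log2 -0.23 ± 0.05, adjusted p = 0.00106). KRT7 had 205 CPM with circ0003553, against 191 CPM in its own control (adjusted p = 0.221), and KRT80 had 11.8 CPM, against 13.4 CPM (adjusted p = 0.384), so neither passed. KRT5, KRT6A and KRT17 stayed under 1 CPM with circ0003553, at 0.726, 0.998 and 0.424 CPM, against 0.506, 0.843 and 0.534 CPM in its own control.

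With circ0004592 in PC3 the keratins had values close to those with circ0003553. Both comparisons use the same pair of PC3 controls, so their likeness is no separate evidence. Of the 8 tested, 1 rose, 3 fell and 4 did not pass (median log2 -0.27), beside 25.7% of all genes (12.3% higher, 13.5% lower, median -0.03). KRT15 had 22.7 CPM with circ0004592, against 69.7 CPM in its own control (log2 -1.60 ± 0.10 against both controls, adjusted p = 3.25e-12). KRT19 had 423 CPM with circ0004592, against 731 CPM in its own control (log2 -0.81 ± 0.06, adjusted p = 1.15e-10). In both genes the 2 circRNA libraries lay together and far from the 2 controls.

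KRT8 had 433 CPM with circ0004592, against 351 CPM in its own control (log2 0.28 ± 0.05, adjusted p = 0.000225). KRT18 had 128 CPM with circ0004592, against 149 CPM in its own control (log2 -0.28 ± 0.06, adjusted p = 0.00149). The call for KRT18 was lost with limma on RPKM (adjusted p = 0.0540), and without either PC3 control it passed. KRT81 had 3265 CPM with circ0004592, against 3619 CPM in its own control (log2 -0.13 ± 0.05, adjusted p = 0.0618), KRT80 had 10.7 CPM, against 12.3 CPM (log2 -0.26 ± 0.10, adjusted p = 0.0633), and KRT7 had 177 CPM, against 194 CPM (log2 -0.13 ± 0.05, adjusted p = 0.0947). None of these 3 passed, though KRT81 passed with no filter (0.0162) and with a filter of 5 CPM (0.0481), KRT80 with that filter (0.0484) and without the PC3 control of the STK3 arm (0.0388), and KRT7 with no filter (0.0410).

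The split of KRT8 and KRT18 shows in their ratio. KRT8 over KRT18, per length, was 1.47 with circ0003553 and 1.59 with circ0004592 in PC3, against 1.06 and 1.10 in the PC3 controls, while in DU145 it was 1.07 with either circRNA, against 1.06 and 1.08 in the DU145 controls. The 2 circRNA libraries of PC3 thus lay outside the range of the other 6. The 2 genes stand next to each other on opposite strands of chromosome 12, KRT8 at 52897187 to 52949954 (minus) and KRT18 at 52948871 to 52952901 (plus), and their listed exons overlap by 525 bases. The strand setting of the counting is not given in the sources used here, so reads of the overlap may count for either gene. KRT7 overlaps the antisense gene RP3-416H24.1 by 282 bases, and that gene's counts, not scaled to length, were between 0.267 and 0.324 of those of KRT7 in the 8 libraries.

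**Figure D3:**
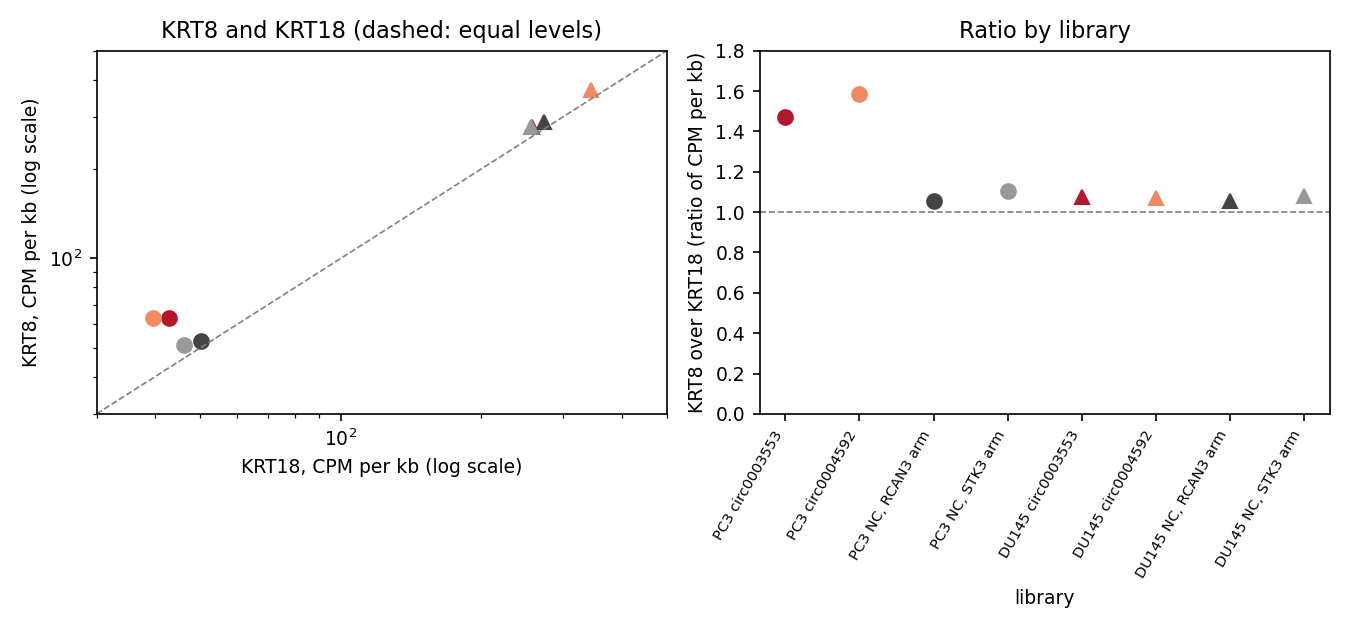
KRT8 against KRT18 in CPM per kb on log axes, and their ratio by library, with PC3 as circles and DU145 as triangles, circRNA libraries in red and orange and controls in grey. The ratio is 1.47 and 1.59 in the PC3 circRNA libraries and between 1.06 and 1.10 in the other 6.

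With lower KRT15 and KRT19, the keratin sums of PC3 differed between plasmids. The ratio of luminal to basal keratins was 101 with circ0003553, against 46.6 in its own control, and 82.6 with circ0004592, against 43.3. The basal sum was 3.40 with circ0003553 and 3.96 with circ0004592, against 10.2 and 10.6 CPM per kb in the controls, and the luminal sum was 343 and 327, against 473 and 458 CPM per kb. KRT19 made up 54.4% and 55.4% of the luminal sum with the circRNAs, against 68.4% in each control. The type II to type I ratio among the 10 keratins was 7.29 with circ0003553 and 8.04 with circ0004592, against 5.01 and 5.35 in the controls. These sums have no test.

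Interferon-stimulated genes moved with these changes in PC3. All 20 of a list of such genes were higher with either circRNA in PC3, with a summed level of 18971 CPM with circ0003553 and 18363 CPM with circ0004592, against 471 and 475 CPM in the controls. With edgeR, 11 of 20 were higher with circ0003553 in DU145 and 9 of 20 with circ0004592. The 20 summed to 420 and 431 CPM there, against 374 CPM in each control. Of all genes, 28.8% and 25.7% were called in PC3, and 10.9% and 10.4% in DU145. DESeq2 and limma on RPKM called all 20 with either circRNA in PC3. In DU145 DESeq2 called 9 and 8 of the 20. There limma on RPKM called 0 and 0, as it did of all genes (13 and 10 at an unadjusted p under 0.05). The part of the interferon-stimulated genes in the keratin values was not tested. Leukocyte markers (8 of 10 listed) summed to 594 and 618 CPM with the circRNAs in PC3, against 296 and 271 CPM in the controls, and to 127 and 170 CPM in DU145, against 101 and 110 CPM. Nearly all of this was CD68, a lysosomal protein also made outside leukocytes and the one gene of the list that was tested. PTPRC, the pan-leukocyte marker, did not exceed 0.0601 CPM, and MS4A1 and LYZ did not exceed 0.0558 CPM. Fibroblast markers (8 of 10 listed) summed to 27.3 and 27.5 CPM with the circRNAs in PC3, against 32.1 and 33.5 CPM, and to at most 5.17 CPM in DU145.

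**Figure D4:**
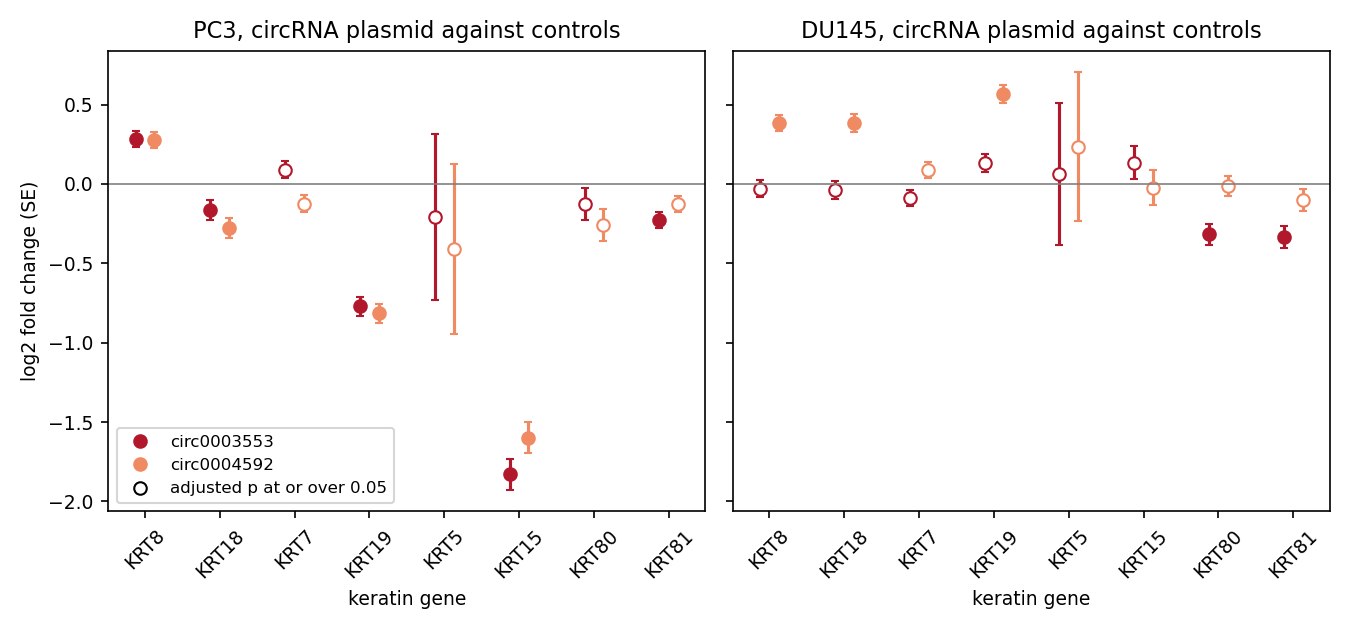
Log2 fold change of the 8 tested keratins with each circRNA plasmid against both controls of the line, PC3 on the left and DU145 on the right. Points are edgeR estimates, bars are 1 SE and open points have an adjusted p of 0.05 or more. KRT15 at -1.83 and -1.60 and KRT19 at -0.77 and -0.81 stand lowest in PC3, and KRT19 at 0.57 stands highest in DU145 with circ0004592.

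In DU145 the circ0003553 plasmid came with small changes in 2 keratins. None of the 8 rose, 2 fell and 6 did not pass (median log2 -0.03), beside 10.9% of all genes (4.62% higher, 6.27% lower, median 0.00). KRT80 had 123 CPM with circ0003553, against 152 CPM in its own control and 154 CPM in the other DU145 control (log2 -0.32 ± 0.06, adjusted p = 0.00188). KRT81 had 18.0 CPM with circ0003553, against 22.4 CPM in its own control and 22.8 CPM in the other (log2 -0.33 ± 0.07, adjusted p = 0.00193). The lowest value of both genes among the DU145 libraries was that with circ0003553. KRT7 had 1802 CPM with circ0003553, against 1958 CPM in its own control, KRT8 had 1902 CPM, against 1979 CPM, and KRT18 had 829 CPM, against 876 CPM, with log2 changes between -0.09 and -0.03 and adjusted p from 0.295 to 0.795. KRT19 had 512 CPM, against 489 CPM (adjusted p = 0.157), and KRT15 had 15.2 CPM, against 14.8 CPM (adjusted p = 0.454).

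With circ0004592 in DU145, KRT8, KRT18 and KRT19 rose together. Of the 8 keratins tested 3 rose, none fell and 5 did not pass (median log2 0.16), beside 10.4% of all genes (5.93% higher, 4.51% lower, median 0.00). KRT19 had 693 CPM with circ0004592, against 446 CPM in its own control and 489 CPM in the other DU145 control (log2 0.57 ± 0.06, adjusted p = 8.12e-07). KRT8 had 2536 CPM, against 1902 CPM in its own control (log2 0.39 ± 0.05, adjusted p = 2.46e-05). KRT18 had 1108 CPM, against 824 CPM in its own control (log2 0.38 ± 0.06, adjusted p = 0.000121). In each of the 3 genes this library lay above the other 3 of DU145. KRT7 had 2041 CPM, against 1876 CPM in its own control (adjusted p = 0.289), and KRT80, KRT81 and KRT15 had 152, 21.1 and 13.6 CPM, against 154, 22.8 and 12.7 CPM. The luminal sum was 1508 CPM per kb with circ0004592, against 1182 CPM per kb in its own control.

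The DU145 calls depend on the test. With limma on the deposited RPKM none of these 5 calls passed (adjusted p from 0.0977 to 0.151). At an unadjusted p under 0.05 limma had 2 keratins with circ0003553 and 4 with circ0004592. No gene at all passed with limma there (lowest adjusted p 0.0875 with circ0003553 and 0.0507 with circ0004592). Its counts of 0 in DU145, here and in the gene lists, are thus no result about particular genes. DESeq2 called 2 and 3 keratins, and fewer of all genes than edgeR. KRT5 did not pass with either circRNA in either line, with adjusted p from 0.639 to 0.962.

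The difference between the lines in the effect of a circRNA was tested directly, as the PC3 effect minus the DU145 effect. For circ0003553, 1 of 8 keratins had a higher effect in PC3, 2 a lower one and 5 did not pass (median -0.01), beside 22.6% of all genes (12.1% higher, 10.5% lower, median -0.03). The effect on KRT15 was lower in PC3 by a log2 difference of -1.96 ± 0.14 (adjusted p = 1.45e-10) and that on KRT19 by -0.90 ± 0.08 (adjusted p = 9.95e-09), while that on KRT8 was higher (0.31 ± 0.07, adjusted p = 0.00276). The call for KRT8 was lost with limma on RPKM (adjusted p = 0.0912). For circ0004592, none was higher, 4 were lower and 4 did not pass (median -0.45), beside 20.3% of all genes (9.79% higher, 10.5% lower, median -0.03). These were KRT15 (-1.58 ± 0.15, adjusted p = 1.75e-08), KRT19 (-1.38 ± 0.08, adjusted p = 4.06e-12), KRT18 (-0.66 ± 0.08, adjusted p = 2.53e-06) and KRT7 (-0.22 ± 0.07, adjusted p = 0.0414). The effect of circ0004592 on KRT8, a rise in both lines, had a difference of -0.11 ± 0.07 (adjusted p = 0.329). The call for KRT7 was lost with limma and without 3 of the 4 controls, with adjusted p up to 0.188.

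Set against the control of its line and arm over both lines together, neither circRNA gave a called keratin. With edgeR and a block for each line and arm, 0 of 8 keratins and 0% of all genes passed for each circRNA. In this fit an effect that differs between the lines counts as spread, so such an effect could hardly pass. Of the 20 interferon-stimulated genes 0 passed, at median log2 changes of 3.24 (circ0003553) and 3.28 (circ0004592). The absence of calls is therefore no sign that the changes within a line are missing. At an unadjusted p under 0.05 there were 0 keratins and 519 genes for circ0003553, and 1 keratin and 542 genes for circ0004592. DESeq2 called 0 keratins in either comparison, and 11 and 13 genes, and limma on RPKM called 0 of both. The log2 change of KRT15 over both lines was -0.90 ± 0.55 for circ0003553 and -0.78 ± 0.55 for circ0004592.

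Other keratins were measured in PC3. Of 51 keratin genes listed, 41 are not among the 10 above, 9 of these were tested, and in the PC3 controls 8 of the 9 were higher and 1 was lower than in the DU145 controls, beside 82.6% of all genes called. KRT75, a type II keratin of the hair follicle, had 258 CPM with circ0003553, against 134 CPM in its own control, and 239 CPM with circ0004592, against 128 CPM (log2 0.98 ± 0.07 and 0.87 ± 0.07, adjusted p = 5.68e-11 and 6.42e-10), and did not exceed 0.132 CPM in DU145. KRT34, a type I hair keratin, had 13.1 CPM with circ0003553, against 6.86 CPM, and 12.8 CPM with circ0004592, against 5.97 CPM (log2 1.03 ± 0.17 and 0.996 ± 0.17, adjusted p = 5.33e-05 and 8.56e-05). KRT37, another type I hair keratin, had 2.57 CPM with circ0003553, against 6.58 CPM, and 1.86 CPM with circ0004592, against 6.83 CPM (log2 -1.38 ± 0.28 and -1.85 ± 0.29, adjusted p = 0.000543 and 3.80e-05), and 0 counts in all DU145 libraries. KRT10, a keratin of differentiated epidermis, had 15.9 CPM with circ0003553, against 20.8 CPM, and 16.1 CPM with circ0004592, against 19.5 CPM (log2 -0.35 ± 0.11 and -0.32 ± 0.11, adjusted p = 0.0186 and 0.0292). In all, 2 of the 9 rose and 4 fell with circ0003553 in PC3, and 2 rose and 2 fell with circ0004592, beside 28.8% and 25.7% of all genes called. DESeq2 called 2 and 3 of the 9 there, and limma on RPKM 4 and 3. Both tools called fewer of all genes than edgeR in each comparison of a circRNA with the controls of a line, as given further below. In DU145, 0 of the 9 passed with circ0003553 (4 at an unadjusted p under 0.05 with edgeR, and 0 called with DESeq2 or limma), beside 10.9% of all genes. With circ0004592, beside 10.4% of all genes, KRT83 and KRT86 fell, at 0.0614 and 4.24 CPM, against 0.288 and 6.89 CPM in its own control. The KRT83 value is 2 counts, under the floor of 0.184 CPM of that library. Neither DESeq2 nor limma made these calls. KRT6B, close to KRT6A, lay between 3.32 and 5.45 CPM in PC3, against at most 0.0588 CPM in DU145.

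Genes of the structures that hold keratin filaments were read from lists chosen with earlier results of these data known. Of 10 tested desmosome genes, 1 rose and 5 fell with circ0003553 in PC3 (median log2 -0.22), and 1 rose and 6 fell with circ0004592 (median -0.25), beside 28.8% and 25.7% of all genes called. The counts depend on the tool, as those of all genes do: DESeq2 called 4 and 2 of the 10, and limma on RPKM 5 and 2. The one that rose was DSP, desmoplakin, which ties keratin filaments to the desmosome. It had 247 CPM with circ0003553, against 101 CPM in its own control, and 219 CPM with circ0004592, against 96.8 CPM (log2 1.32 ± 0.06 and 1.15 ± 0.06, adjusted p = 2.54e-15 and 5.38e-14). The desmosomal cadherins DSC2 (-0.52 and -0.33) and DSC3 (-0.50 and -0.47) and the plakophilin PKP2 (-0.75 and -0.80) were among those that fell with both. In DU145, 0 of the 10 passed with circ0003553 (0 at an unadjusted p under 0.05 with edgeR, and 0 with DESeq2 or limma). With circ0004592 there, 1 rose and 1 fell, DSP at 0.34 and PKP4 at -0.26 (DESeq2 called 1 and limma 0, with 3 at an unadjusted p under 0.05). Beside these stand 10.9% and 10.4% of all genes with edgeR, and limma called no gene at all in DU145. Between the controls, 3 were higher and 6 lower in PC3, beside 82.6% of all genes called, and PKP1, a plakophilin of stratified epithelia, had 345 and 338 CPM in the PC3 controls, against 0.880 and 1.02 CPM in the DU145 controls.

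Of 12 genes of keratin linkers and hemidesmosomes, the junctions that fix keratin filaments to the basement membrane, 4 were higher and 7 lower in the PC3 controls than in the DU145 controls, again beside 82.6% of all genes. With the circRNAs in PC3, 2 rose and 2 fell (circ0003553, median 0.05), and 1 rose and 4 fell (circ0004592, median -0.04), beside 28.8% and 25.7% of all genes. DESeq2 called 2 and 4 of the 12, and limma on RPKM 3 and 3, with fewer of all genes called by either tool. COL17A1, a hemidesmosomal collagen, rose to 2.18 CPM with circ0003553, against 1.04 CPM, and to 2.34 CPM with circ0004592, against 1.14 CPM (log2 0.99 and 1.10, adjusted p = 0.00261 and 0.000937). ITGA6, the alpha 6 integrin, fell to 125 CPM with circ0003553, against 193 CPM, and to 115 CPM with circ0004592, against 189 CPM (log2 -0.61 and -0.73, adjusted p = 2.35e-08 and 1.09e-09). In DU145, 1 rose and 1 fell with circ0003553, and 6 rose and 1 fell with circ0004592 (median 0.29), beside 10.9% and 10.4% of all genes. Those that rose with circ0004592 included PLEC, plectin, which links keratins to hemidesmosomes, at 3163 CPM, against 2146 CPM in its own control (log2 0.49 ± 0.05, adjusted p = 1.31e-06), and the laminin chain LAMB3 (0.38). PPL, periplakin, fell with both circRNAs in DU145 (-0.63 and -0.44). As of all genes, limma on RPKM called 0 of these 12 in DU145 with either circRNA (4 and 8 at an unadjusted p under 0.05).

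Of 9 tested epithelial transcription factors, 1 rose and 2 fell with each circRNA in PC3 (medians 0.07 and -0.15), a share near the 28.8% and 25.7% of all genes called. DESeq2 called 3 and 2 of the 9, and limma 3 and 3, with fewer of all genes called by either tool. KLF4, a factor of epithelial differentiation, had 27.0 CPM with circ0003553, against 12.1 CPM, and 26.1 CPM with circ0004592, against 11.3 CPM (log2 1.21 ± 0.11 and 1.16 ± 0.11, adjusted p = 8.55e-09 and 1.96e-08). TFAP2C fell (log2 -0.70 and -0.89) and so did KLF5, a factor of proliferating epithelium (-0.40 and -0.30). In DU145, 0 of the 9 passed with circ0003553 (2 at an unadjusted p under 0.05 with edgeR, and 0 called with DESeq2 or limma). With circ0004592 there, 1 rose and 1 fell, KLF5 at 0.33 and TFAP2C at -0.51 (DESeq2 called 1 and limma 0, with 2 at an unadjusted p under 0.05). Beside these stand 10.9% and 10.4% of all genes with edgeR, and limma called no gene at all in DU145. Between the controls 3 were higher and 4 lower in PC3, beside 82.6% of all genes.

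Patterns over the 8 libraries were compared after the mean log2 CPM of each line was taken off, as a description with 4 libraries of each line and shared depth and controls. Of 13632 genes compared, RPL15, C2CD2 and GOLGA6L4 were most like KRT15 (r 0.996, 0.995 and 0.994), AC078883.3, CAMK2B and ITPKB most like KRT19 (0.997, 0.994 and 0.993), FLOT2 and NR2F6 most like KRT18 (0.998 and 0.993), CTD-2369P2.5 and EPHA5 most like KRT8 (0.990 each), and QARS most like KRT81 (0.984). No keratin among the 10 was among the 3 genes most like another. The nearest pairs within the 10 were KRT18 and KRT19 (r = 0.85), KRT15 and KRT19 (0.84) and KRT80 and KRT81 (0.81), and the filament partners KRT8 and KRT18 stood at 0.32.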

How the data were processed

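The 8 libraries were made from total RNA after removal of ribosomal RNA, with a stranded kit that adds molecular identifiers, and sequenced in pairs on a NovaSeq, per the labels' protocols. Per the submitters' processing notes, Trimmomatic 0.36, featureCounts from Subread 1.5.1, edgeR 3.12.1 and hg38 were used. The aligner, annotation release, strand setting and use of the identifiers are not given in the sources used here. The deposited tables hold raw read counts per gene, and RPKM per gene made by the authors, which equal the counts per kb, scaled to the counted reads of the library. Genes in 1 of the 2 count tables only (5511, at most 14 counts) were given 0 in the other.

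The counts were joined, genes with at least 1 CPM in at least 2 libraries were kept, and edgeR 4.0.16 in R 4.3.3 (TMM, quasi-likelihood test, Benjamini-Hochberg over 17877 genes, threshold 0.05) was fitted to 6 groups of line and plasmid with 2 residual degrees of freedom. Comparisons over both lines used a block per line and arm (2 residual degrees of freedom). The SE was worked back from the F statistic, as the log2 change over its square root. Even numbers made up 64.9% to 66.1% of counts up to 20, so the read pair was taken as the unit of the floor, which covers counting error only. Scripts were tested on simulated counts.

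The members and gene lists were chosen with earlier results of these data known. Named were all 10 keratins, other keratins of at least 5 CPM in 1 library, at most 4 called genes of each list, taken from the largest fold down, and the 3 genes of at least 5 CPM most like each tested keratin, of which the text gives some. Markers at or near 0 were named whatever their test. Alternatives were DESeq2 1.42.0, its size factors in edgeR, no filter, a filter of 5 CPM, limma 3.58.1 on log2 RPKM plus 0.1, each control or pair left out, and, for the lines, a replicate block. The labels carry no replicate numbers; libraries are paired by arm and plasmid.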

Additional observations from a re-analysis of the deposited data

Results flagged for a closer look

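The effects of the circRNAs differed between PC3 and DU145 for 7 combinations of keratin and circRNA, by the test of the difference (PC3 effect minus DU145 effect, log2, edgeR). For circ0003553 these were KRT15 at -1.96 (lower than both controls in PC3, higher than both in DU145), KRT19 at -0.90 (lower than both PC3 controls, higher than both DU145 controls) and KRT8 at 0.31 (higher than both PC3 controls). KRT8 had 1902.1 CPM with circ0003553 in DU145, against 1978.6 and 1902.4 CPM in the controls. None of these keratins passed with circ0003553 against the controls in DU145. For circ0004592 the combinations were KRT15 at -1.58, KRT19 at -1.38, KRT18 at -0.66 and KRT7 at -0.22, each with the PC3 library below both PC3 controls. The DU145 library lay above both DU145 controls for KRT19, KRT18 and KRT7, and between them for KRT15. With circ0004592, KRT15 and KRT7 did not pass in DU145, nor did KRT7 in PC3. KRT7 had the highest adjusted p of the 7, 0.0414. Each circRNA effect rests on 1 library per line, and both circRNAs share the controls of a line.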

How the results depend on the processing

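No result changed direction past the threshold. Of 655 single values under an alternative, 632 stayed the same, 18 lost a call and 5 gained one. Among the 632 are the luminal shares of the libraries on the deposited RPKM. These have no threshold and could not move, since the scaling of a library cancels in a share. For the lines, the replicate block left 6 keratins and 13735 genes called, and KRT19 (log2 0.10) was the keratin whose call was lost. That fit also averages over the circRNA libraries, so it measures another quantity than the controls alone. Counts of called genes fell with DESeq2 and with limma on RPKM: for circ0003553 in PC3 to 2565 and 3305, for circ0004592 in PC3 to 2266 and 2641, for the difference between lines to 2016 and 1961 (circ0003553) and to 1807 and 1619 (circ0004592). In DU145 they were 820 with DESeq2 and 0 with limma for circ0003553 (3448 genes at an unadjusted p under 0.05 with limma), and 835 and 0 for circ0004592 (3877 genes), where limma called 0 keratins with either circRNA. Leaving out 1 control gave 672 to 2699 genes for circ0003553 in DU145, the lowest without the RCAN3 arm control of DU145 (672) and 759 without the STK3 arm control, and 490 to 2529 for circ0004592, with 490 without the STK3 arm control and 864 without the RCAN3 arm control. Each such fit has 1 residual degree of freedom. Over both lines DESeq2 called 11 and 13 genes, no filter gave 38 and 36, and leaving out 1 pair gave 0 to 6 for each circRNA. The cause of these moves was not tested. Scaling by DESeq2 size factors moved the median of all genes by under 0.1 log2. KRT5, KRT6A and KRT17 rest on 12 to 50 counts a library, which limits the precision of their values.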

Other observations

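Other intermediate filament genes were read beside the keratins. Of 11 tested, 2 were higher and 7 lower in the PC3 controls than in the DU145 controls (median log2 -1.41), beside 82.6% of all genes called. NEFM, a neurofilament protein, had at most 0.0558 CPM in the PC3 controls, against 49.7 and 49.2 CPM in the DU145 controls, while NEFL, another neurofilament protein, had 382 and 357 CPM in the PC3 controls, against 17.1 and 17.2 CPM in the DU145 controls (log2 4.43 ± 0.06, edgeR adjusted p = 2.93e-26). With the circRNAs in PC3, 2 rose and 4 fell with each (medians -0.05 and -0.14), beside 28.8% and 25.7% of all genes. DESeq2 called 5 and 5 of the 11, and limma on RPKM 6 and 5, with fewer of all genes called by either tool. SYNM, synemin, had 213 CPM with circ0003553, against 87.5 CPM in its own control, and 191 CPM with circ0004592, against 86.8 CPM (log2 1.29 and 1.13, adjusted p = 7.56e-15 and 1.29e-13). NEFL had 217 CPM with circ0003553, against 382 CPM, and 214 CPM with circ0004592, against 357 CPM (log2 -0.77 and -0.79, adjusted p = 5.51e-10 and 3.43e-10). In DU145, 2 rose and 2 fell with circ0003553, and 4 rose with circ0004592, among them VIM, vimentin, the filament protein of mesenchymal cells, at 847 CPM, against 618 CPM in its own control (log2 0.45 ± 0.05, adjusted p = 7.95e-06), and LMNA, lamin A, at 1287 CPM, against 1020 CPM (log2 0.35 ± 0.05, adjusted p = 8.28e-05). Beside these stand 10.9% and 10.4% of all genes called in DU145 with edgeR. DESeq2 called 3 and 4 of the 11 there, and limma 0 and 0, as it did of all genes (4 and 4 at an unadjusted p under 0.05). VIM fell with circ0004592 in PC3 (log2 -0.28 ± 0.06, adjusted p = 0.000396).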
